A study of Mus musculus with 3 samples.

Results

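The clustered protocadherins are cell surface proteins of the cadherin family, encoded side by side in 3 clusters named alpha, beta and gamma. They were chosen here by gene symbol alone, as every symbol made of Pcdha, Pcdhb, Pcdhg or the subfamily names Pcdhac, Pcdhga, Pcdhgb and Pcdhgc followed by a number. The rule gave 55 of 24006 gene symbols, with 13 in the alpha cluster, 21 in the beta cluster and 21 in the gamma cluster. Polyadenylated RNA was sequenced from 3 clones of mouse embryonic stem cells (ESCs), 1 library each, labelled wildtype (WT26), DAXX-/- (KO2-3) and ATRX-/- (KO1-44). All 3 clones are male, isogenic and of C57BL/6x129sV background, and the knockouts were derived by CRISPR targeting. All were grown with serum and leukaemia inhibitory factor and were passaged off irradiated feeder cells before RNA was taken. Each genotype is 1 clone and 1 library, so no difference has a replicate check and no test of genotype was possible.

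In neurons, each cell uses only some of the protocadherin promoters of a cluster, and the mixture of proteins on its surface lets branches of the same cell recognise and avoid each other. Each alpha and gamma gene has its own first exon, with its own promoter, which is spliced to constant exons shared by the whole cluster, whereas each beta gene is a single exon. CTCF and cohesin loop chosen promoters to enhancers, and DNA methylation and repressive chromatin keep the others silent. The chromatin remodeller ATRX works with the histone chaperone DAXX to place the histone variant H3.3 at silent chromatin. The comparisons ask how the RNA of the 3 clusters differs between cells labelled as knockouts of either gene and wildtype cells.

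The libraries held 11224100 to 13988376 reads on transcripts. Levels are given as CPM, counts per 1000000 reads of the library size after scaling by trimmed mean of M values (TMM), and the interval after a log2 fold is its 95% counting interval, which does not cover the spread between cultures. Atrx had 4582 reads in wildtype, 3576 in the DAXX-/- library and 1800 in the ATRX-/- library, and Daxx had 1125, 623 and 972. Each targeted gene was lowest in the library that bears its name, with a log2 fold against wildtype of -1.28 (-1.36 to -1.20) for Atrx and -0.44 (-0.59 to -0.30) for Daxx. The ESC label was checked on 13 pluripotency markers, all of which were measured, and 0 of them differed by over 2-fold in any of the 3 comparisons. Of all genes tested, 2.04% did so in the DAXX-/- library and 1.84% in the ATRX-/- library against wildtype, and 1.13% between the knockouts. The summed level of the 13 markers was 6814 CPM in wildtype, 7534 CPM in the DAXX-/- library and 7346 CPM in the ATRX-/- library.

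All 3 clusters lie on the plus strand of chromosome 18, within 912 kb (GRCm38). The alpha cluster spans 36930184 to 37187661, the beta cluster 37264938 to 37524479 and the gamma cluster 37661793 to 37841873. The members have 72 transcripts among the sequences counted, 22 alpha, 24 beta and 26 gamma. Every one of the 72 has the same identifier and length in the GENCODE M21 annotation. The file symbol and the M21 name differ for 3 of them. A transcript filed under Pcdha4 that runs from the fourth alpha exon into the gamma constant exons is Gm42416 in M21, and 2 of the 3 transcripts filed under Pcdhga8 are Pcdhgc4. The members are named here as in the files, with the M21 name where it differs.

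The RNA of the locus was almost all gamma. The gamma cluster had 1496 reads in wildtype, 1768 in the DAXX-/- library and 1771 in the ATRX-/- library, which is 97.2% (96.3 to 98.0), 98.2% (97.5 to 98.8) and 98.4% (97.7 to 98.9) of all reads on the members (exact binomial intervals, counting error only). The beta cluster had 25, 22 and 22 reads and the alpha cluster 18, 10 and 7. In CPM the gamma sum was 103, 162 and 128, the beta sum 1.72, 2.01 and 1.59 and the alpha sum 1.24, 0.916 and 0.506. In every library the gamma sum exceeded the other sums many times over, and the counting intervals of the alpha and beta sums overlapped. The measure of a mean of at least 1 CPM over the libraries was met by 21 of 21 gamma genes and by 0 of the 34 alpha and beta genes.

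**Figure D1:**
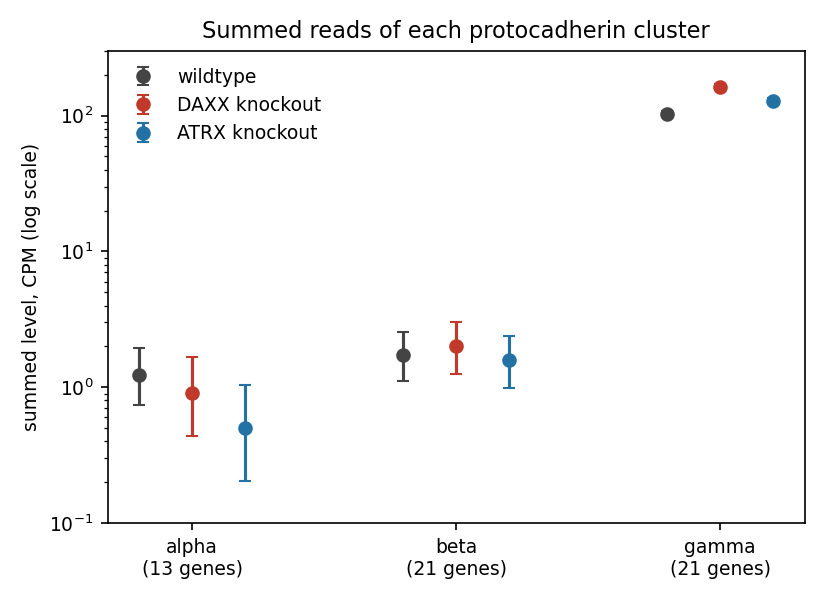
Summed level of each protocadherin cluster in CPM (log axis) in the 3 libraries, with 95% Poisson counting intervals. The gamma sums of 103, 162 and 128 CPM stand far above the alpha and beta sums, which lie between 0.506 and 2.01 CPM.

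The 34 alpha and beta genes were near the limit of detection. A count of 0 allows up to 3 reads, or 0.207 CPM in wildtype, 0.275 CPM in the DAXX-/- library and 0.217 CPM in the ATRX-/- library. Of 21 beta genes, 10 had a read in wildtype, 9 in the DAXX-/- library and 11 in the ATRX-/- library, and 6 (Pcdhb1, Pcdhb4, Pcdhb9, Pcdhb10, Pcdhb12 and Pcdhb13) had 0 reads in all 3. The beta gene with most reads in 1 library was Pcdhb17, with 8 in wildtype, 3 in the DAXX-/- library and 2 in the ATRX-/- library. Pcdhb22, the last gene of the cluster, had 5, 7 and 6 reads, and Pcdhb14 had 2, 2 and 3. No other beta gene had more than 3 reads in a library. None of these 3 showed a difference beyond counting error, with a log2 fold for Pcdhb17 in the ATRX-/- library of -1.93 (-5.20 to 0.39). Summed over the cluster, the beta log2 fold was 0.23 (-0.67 to 1.11) in the DAXX-/- library and -0.12 (-1.01 to 0.77) in the ATRX-/- library.

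In the alpha cluster, 7 of 13 genes had a read in wildtype, 3 in the DAXX-/- library and 2 in the ATRX-/- library. Pcdha1, Pcdha6, Pcdha8 and Pcdhac1 had 0 reads in all 3 libraries. Pcdha4 had most, with 9, 7 and 5 reads, but 8, 7 and 5 of these lay on the transcript that M21 calls Gm42416. That transcript holds 398 of the 50-base windows that make up the gamma constant sequence, so a gamma read can be placed on it. Leaving this transcript out was not planned. Without it the alpha cluster had 10 reads in wildtype, 3 in the DAXX-/- library and 2 in the ATRX-/- library. The alpha sum then had a log2 fold of -1.33 (-3.83 to 0.63) in the DAXX-/- library and -2.25 (-5.48 to -0.02) in the ATRX-/- library, against -0.44 (-1.72 to 0.75) and -1.29 (-2.80 to 0.03) with it. Pcdhac2, one of the C-type isoforms that neurons use more uniformly, had 1, 2 and 0 reads. With 10 reads or fewer in each library, a difference in the alpha cluster was at the edge of what this depth can show.

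The gamma genes share much of their sequence, and their counts share reads. Of the 26 gamma transcripts, 24 hold the whole constant sequence, which makes up 41.1% to 45.3% of the windows of those over 4 kb. Windows found under 1 symbol only made up a median of 54.4% of a gamma transcript, 40.9% of an alpha transcript and 96.8% of a beta transcript. One gamma transcript, a short one filed under Pcdhga8 and named Pcdhgc4 in M21, has 2272 bases, of which 93.0% of windows are constant sequence. It had 32 reads in wildtype (95% Poisson interval 21.9 to 45.2), 40 in the DAXX-/- library (28.6 to 54.5) and 45 in the ATRX-/- library (32.8 to 60.2). If each of the 24 transcripts took that many reads on the shared sequence, shared reads would make up 51.3% (35.1 to 72.5), 54.3% (38.8 to 73.9) and 61.0% (44.5 to 81.6) of the gamma sum. The 21 gamma values are therefore not independent of each other, and a count that a gamma gene has at the level of this transcript need not come from its own promoter.

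Against that shared level, some gamma transcripts stood well above it and others did not. The ratio of a transcript's reads to those of the shared-sequence transcript had an interval wholly above 1 for 13 of 23 other transcripts in wildtype, 14 in the DAXX-/- library and 7 in the ATRX-/- library. Within a library all 23 ratios share 1 denominator, so these counts depend on the 32, 40 or 45 reads of the shared-sequence transcript. Transcripts above it in all 3 libraries numbered 7, both transcripts of Pcdhgc3 and 1 each of Pcdhga1, Pcdhga10, Pcdhgb7, Pcdhga11 and Pcdhga12. Apart from Pcdhga1, the first gene of the cluster, they lie in 1 run from Pcdhga10 to Pcdhgc3 toward the far end, where the remaining gene of the run, Pcdhgb8, was above it in wildtype and the DAXX-/- library. Beyond the run lie Pcdhgc4 and Pcdhgc5. Another 7 transcripts were above it in none of the libraries. They were those of Pcdhga3, Pcdhga5, Pcdhga6, Pcdhgb4, Pcdhgb6 and Pcdhgc5, and the longer Pcdhgc4 transcript filed under Pcdhga8.

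**Figure D2:**
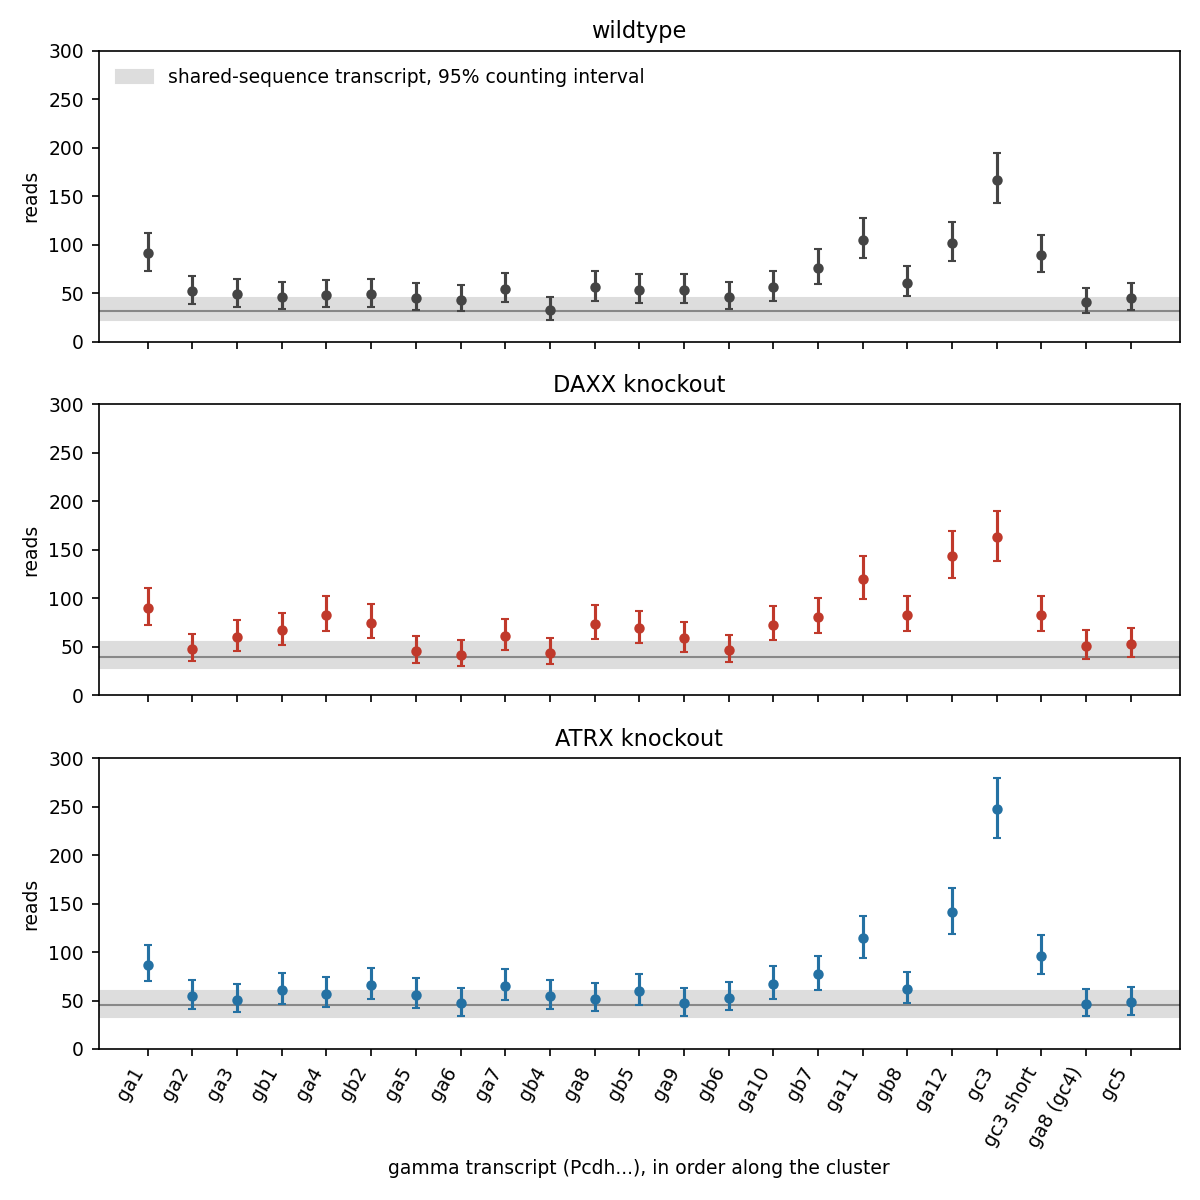
Reads on each of 23 gamma transcripts, in order along the cluster, with 95% Poisson counting intervals, in the 3 libraries. The grey band is the interval of the transcript made almost only of shared sequence (32, 40 and 45 reads), and Pcdhgc3, Pcdhga12, Pcdhga11 and Pcdhga1 stand above it in each library.

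Pcdhgc3 was the most abundant member. It is a C-type isoform whose protein binds Axin1, a scaffold of Wnt signalling. It had 256 reads in wildtype, 246 in the DAXX-/- library and 343 in the ATRX-/- library over 2 transcripts, and the longer of these had 167, 163 and 247. The longer transcript stood at 5.22 times the shared-sequence transcript in wildtype (3.56 to 7.88), 4.08 times in the DAXX-/- library (2.87 to 5.91) and 5.49 times in the ATRX-/- library (3.98 to 7.72). Pcdhga8 as filed had 129, 165 and 143 reads, but these are summed over its own transcript and the 2 named Pcdhgc4. Among single transcripts outside Pcdhgc3, Pcdhga12 had 102, 144 and 141 reads and ratios of 3.19, 3.60 and 3.13. Pcdhga11 had 105, 120 and 114 reads with ratios of 3.28, 3.00 and 2.53, and Pcdhga1 had 91, 90 and 87 with ratios of 2.84, 2.25 and 1.93. The wildtype counting intervals of Pcdhga1, Pcdhga11 and Pcdhga12 overlap, and that of Pcdhgc3 summed over its 2 transcripts lies above them in each library. For the longer Pcdhgc3 transcript alone, the interval of its 163 reads in the DAXX-/- library overlaps that of the 144 of Pcdhga12. In the B subfamily Pcdhgb7 had 76, 81 and 77 reads, the highest of the subfamily in wildtype and the ATRX-/- library but not in the DAXX-/- library, where Pcdhgb8 had 83. At the low end, Pcdhgb4 had 33, 44 and 55 reads and Pcdhga6 43, 42 and 47, within counting error of the shared level in each library. Pcdhgc5, a C-type isoform of mature neurons, had 45, 53 and 48 reads on its full transcript.

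The counts of the remaining gamma genes were close to each other. Among the A subfamily, Pcdhga2, Pcdhga3, Pcdhga5, Pcdhga7, Pcdhga9 and Pcdhga10 had 45 to 56 reads in wildtype, 46 to 73 in the DAXX-/- library and 47 to 67 in the ATRX-/- library. Among the B subfamily, Pcdhgb5 and Pcdhgb6 had 53, 69 and 60 and 46, 47 and 53 reads, and Pcdhgb8, a polymorphic pseudogene in M21, had 61, 83 and 62. The transcript that is Pcdhga8 in both sources had 56, 74 and 52 reads and stood above the shared-sequence transcript in wildtype (1.75 times, 1.11 to 2.79) and the DAXX-/- library (1.85 times, 1.24 to 2.79). The 5024-base transcript of Pcdhgc4, an isoform that neurons need for survival, had 41, 51 and 46 reads. A 593-base transcript of Pcdhgc5, of which 73.2% of windows are constant sequence, had 1, 9 and 13 reads, and a 444-base one had 3 in each library. Between neighbours in the order of these low counts the counting intervals overlap.

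Per length, the leading isoform stood below E-cadherin and P-cadherin in each library. The longer Pcdhgc3 transcript had 2.45, 3.18 and 3.81 CPM per kilobase in wildtype, the DAXX-/- library and the ATRX-/- library, and the median of the 23 gamma transcripts was 0.773, 1.35 and 0.928. E-cadherin, the main cadherin of ESCs, encoded by Cdh1, had 96.2, 132 and 116 CPM per kilobase, and P-cadherin, encoded by Cdh3, had 7.06, 12.0 and 12.8. Among 13 non-clustered protocadherins 3 were measured. Pcdh1, on the same chromosome, had 2.71, 2.24 and 2.60 CPM per kilobase, and the other 2 were Pcdh19 and Cdhr1. The values of Cdh1, Cdh3 and Pcdh1 are summed over the transcripts of each symbol. Summed in that way, Pcdhgc3 had 4.16, 5.30 and 5.74, below Cdh1 and Cdh3 and above Pcdh1 in each library. It was also above Cdh24, the next of the 20 listed classical cadherins after Cdh1 and Cdh3, at 3.38, 4.13 and 2.65. Pcdh7, Pcdh11x, Pcdh15 and Pcdh20 had 0 reads in all 3 libraries.

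In the DAXX-/- library the gamma sum was 1.57 times its wildtype level (1.47 to 1.68), a log2 fold of 0.65 (0.55 to 0.75). All 21 gamma genes had a point value above 0, from 0.30 for Pcdhga2 (-0.30 to 0.89) to 1.2 for Pcdhga4 (0.67 to 1.74). The interval lay wholly above 0 for 16 of the 21, against 23.7% of all genes tested. Because the 21 share reads, these are not 16 separate observations, and the shared-sequence transcript itself had a log2 fold of 0.73 (0.03 to 1.45). By the rule that the whole interval lie beyond 2-fold, 0 of 21 gamma genes were called, beside 2.04% of all 13151 genes tested (0.487% higher and 1.55% lower). The median over the 21 was 0.69, beside 0.03 over all 12759 measured genes.

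Pcdhga4 had 48 wildtype reads, 83 DAXX-/- reads and 57 ATRX-/- reads. Its neighbours on either side were the B subfamily genes Pcdhgb1, with 46, 67 and 61 reads over the same libraries, and Pcdhgb2, with 49, 75 and 66. The log2 fold in the DAXX-/- library was 0.95 (0.39 to 1.53) for Pcdhgb1 and 1.02 (0.49 to 1.57) for Pcdhgb2. For each of the 3 genes the wildtype count was lowest and the DAXX-/- count highest. Pcdhga12 had a log2 fold of 0.91 (0.53 to 1.29), while Pcdhga1 was at 0.39 (-0.04 to 0.83) and Pcdhgc3 at 0.35 (0.09 to 0.61). The 3 genes from Pcdhgb1 to Pcdhgb2 were above the shared-sequence transcript in the DAXX-/- library, with a ratio of 2.08 for Pcdhga4 (1.41 to 3.11), and not in the other 2 libraries, where it was 1.5 (0.939 to 2.42) in wildtype and 1.27 (0.842 to 1.92) in the ATRX-/- library. Whether these ratios differ between libraries was not tested.

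In the ATRX-/- library the gamma sum was 1.24 times the wildtype level (1.16 to 1.33), a log2 fold of 0.31 (0.21 to 0.41). Of the 21 genes 20 had a point value above 0, from -0.11 for Pcdhga9 (-0.70 to 0.49) to 0.80 for Pcdhgb4 (0.16 to 1.47), and 19 did so when libraries were scaled by total counts or by DESeq2 size factors. The interval lay wholly above 0 for 3, namely Pcdhgb4, Pcdhga12 at 0.54 (0.16 to 0.92) and Pcdhgc3 at 0.49 (0.25 to 0.73). This share is below the 25.4% of all genes tested, though interval width depends on read count, which differs between genes. By the 2-fold rule 0 of 21 were called, beside 1.84% of the 13230 genes tested. Pcdhgb4 had 33 and 55 reads, within counting error of the shared-sequence transcript in both libraries, and that transcript had a log2 fold of 0.56 (-0.13 to 1.26). The median over the 21 was 0.27, beside 0.02 over all measured genes. Counting only gamma reads above the shared-sequence level, the log2 fold was -0.01 (-0.85 to 0.83) here and 0.56 (-0.19 to 1.31) for the DAXX-/- library. Both comparisons use the same wildtype library.

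**Figure D3:**
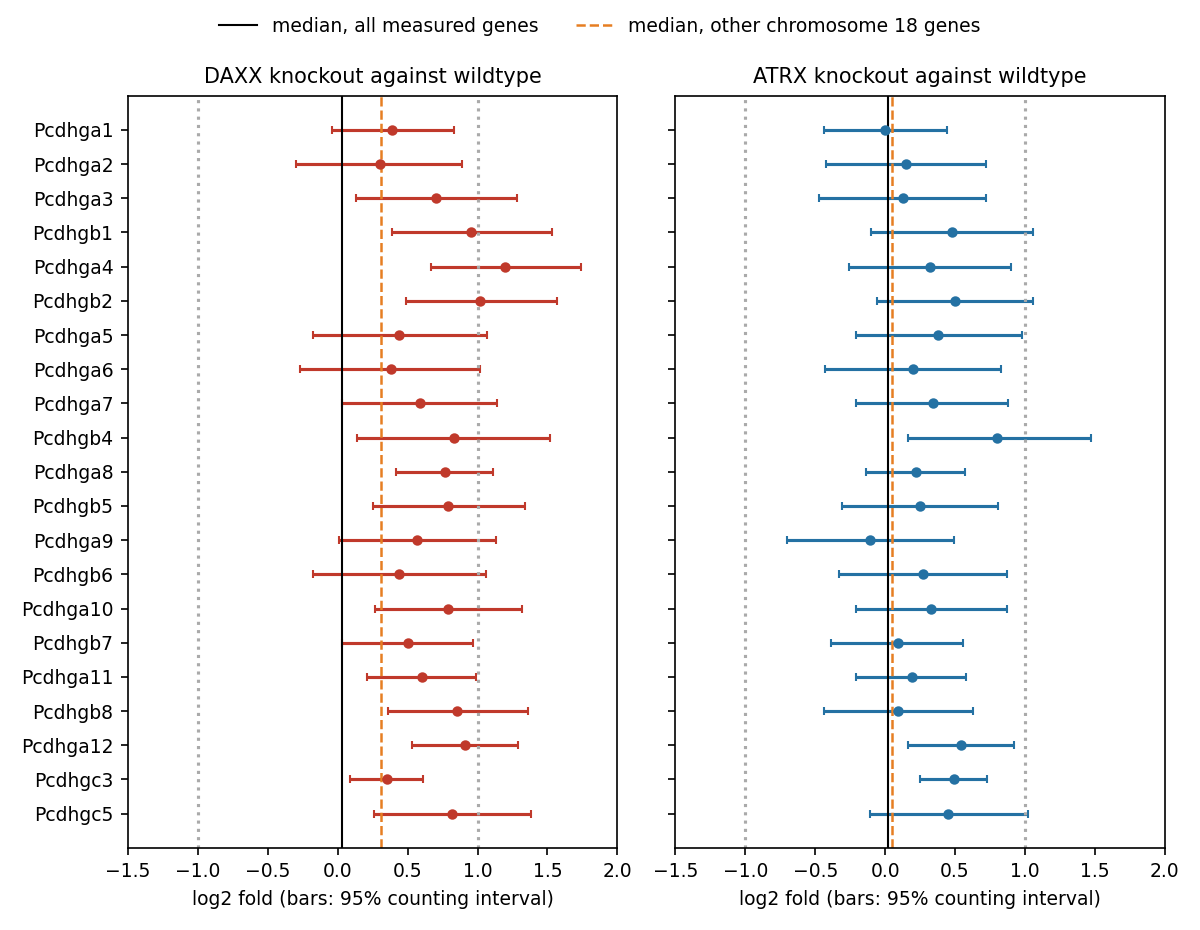
Log2 fold of each of the 21 gamma genes, in order along the cluster, in the DAXX-/- library (left) and the ATRX-/- library (right) against wildtype, with 95% counting intervals, and dotted lines at 2-fold. All 21 points lie above 0 on the left, where the median of the other chromosome 18 genes (dashed) is 0.31, and 20 on the right, where it is 0.05.

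The rest of chromosome 18 was also higher in the DAXX-/- library. Its 310 measured genes outside the clusters had a median log2 fold of 0.31, the highest of 20 chromosomes, with quartiles of 0.12 and 0.45, and 80.6% of them were above 0 against 54.0% of all measured genes. The median was 0.32 before the clusters, 0.29 beyond them and 0.33 within 2 Mb of them, so the difference was not limited to the neighbourhood of the locus. In the ATRX-/- library the chromosome 18 median was 0.05, which ranked 8 among the 20 chromosomes. The gamma sum of the DAXX-/- library stood 0.34 above the chromosome's median (0.24 to 0.44, counting error of the gamma sum only) and exceeded the value of 89.7% of its other genes. In the ATRX-/- library it stood 0.26 above, and exceeded 83.2%. Of the 21 gamma genes, 6 in the DAXX-/- library and 3 in the ATRX-/- library had an interval wholly above the chromosome's median. The same held for 24.5% and 19.7% of the other chromosome 18 genes and for 4.53% and 20.8% of all genes tested. Interval width depends on read count, so these shares compare genes of unlike depth and do not show whether gamma genes differ from their chromosome. The part of the chromosome-wide difference in the gamma values was not tested.

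**Figure D4:**
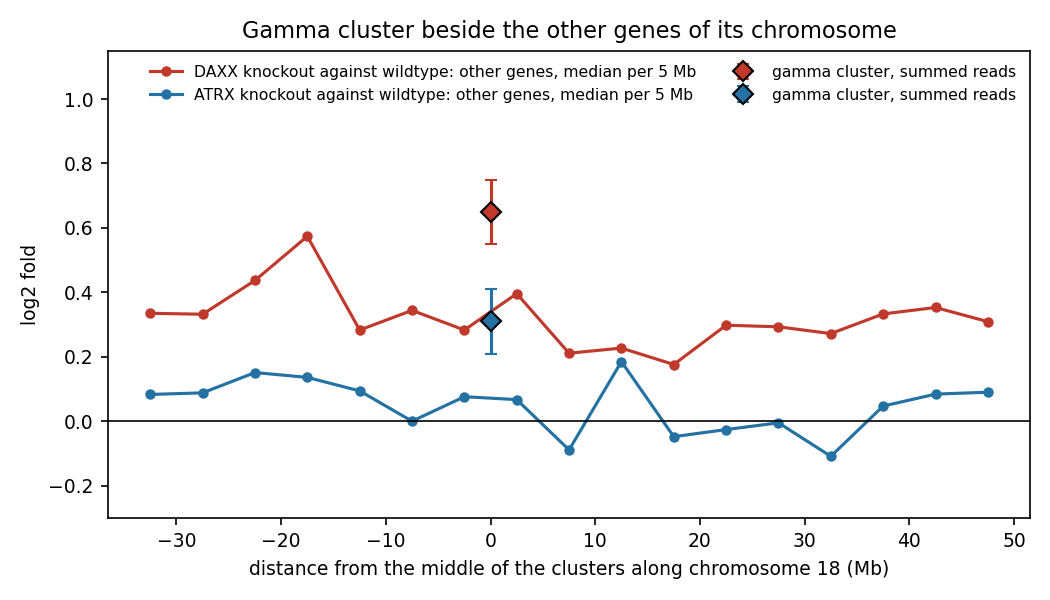
Median log2 fold of the chromosome 18 genes outside the clusters in 5 Mb steps of distance from the middle of the clusters, for steps with at least 5 genes, and the gamma sum (diamonds, 95% counting interval) at distance 0. The DAXX knockout line stays above 0 along the chromosome, and its gamma sum of 0.65 lies above it, as that of the ATRX-/- library at 0.31 lies above its own line.

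Between the DAXX-/- and ATRX-/- libraries, the gamma sum of the ATRX-/- library was 0.79 times that of the DAXX-/- library (0.739 to 0.844), a log2 fold of -0.34 (-0.44 to -0.24), beside a chromosome 18 median of -0.28. Relative to that median the difference was -0.06 (-0.16 to 0.03), within counting error. The interval lay wholly below 0 for 9 of 21 gamma genes and above it for 0, against 20.9% and 20.7% of all genes tested. By the 2-fold rule 0 of 21 were called, beside 1.13% of all genes tested. Pcdhga4 was lowest at -0.88 (-1.40 to -0.38), and Pcdhgc3 was the member with a point value above 0, at 0.14 (-0.10 to 0.38).

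The share of a gene within the gamma reads does not depend on library scaling or on the level of the chromosome. Pcdhgc3 took 17.1% of gamma reads in wildtype (15.2 to 19.1), 13.9% in the DAXX-/- library (12.3 to 15.6) and 19.4% in the ATRX-/- library (17.6 to 21.3). Relative to the other gamma genes its log2 ratio was 0.57 (0.33 to 0.81) in the ATRX-/- library against the DAXX-/- library, -0.35 (-0.61 to -0.09) in the DAXX-/- library against wildtype and 0.22 (-0.02 to 0.46) in the ATRX-/- library against wildtype. Pcdhga4 took 3.21%, 4.69% and 3.22%, with a ratio of 0.57 (0.04 to 1.12) in the DAXX-/- library against wildtype and -0.57 (-1.08 to -0.06) between the knockouts. The other 19 gamma genes had intervals that included 0 in all 3 comparisons, and in the ATRX-/- library against wildtype all 21 did. The intervals were not adjusted for the number of genes read, and they compare libraries, not genotypes.

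**Figure D5:**
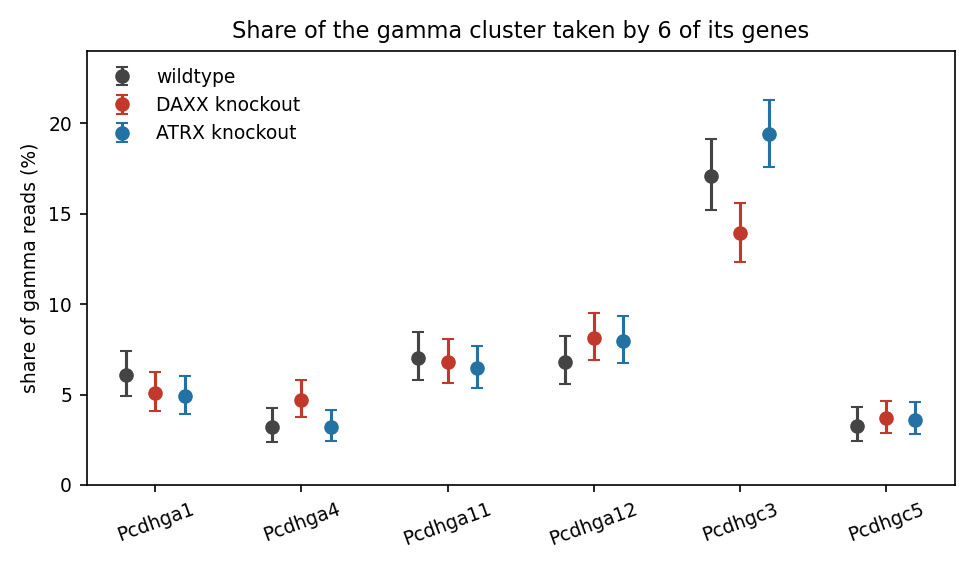
Share of all gamma reads taken by 6 gamma genes in the 3 libraries, with exact binomial 95% intervals. Pcdhgc3 takes 13.9% in the DAXX-/- library and 19.4% in the ATRX-/- library, with intervals that do not overlap, while the intervals of Pcdhga1, Pcdhga4, Pcdhga11, Pcdhga12 and Pcdhgc5 overlap between libraries.

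Of the 39 listed genes beside the locus that the files hold, 36 were tested in each comparison. In the DAXX-/- library 0 were past 2-fold (2.04% of all genes tested), with a median over 36 of 0.31. In the ATRX-/- library 1 was higher (0.695% of all genes tested), with a median of 0.03. The one was Egr1, an immediate early transcription factor, with 346, 123 and 885 reads and a log2 fold of 1.42 (1.24 to 1.61). The list reaches beyond adjacent genes. Egr1 starts at 34859823, Hspa9 at 34937414 and Ctnna1 at 35118859, and the alpha cluster at 36930184. Taf7, a subunit of the general transcription factor TFIID that lies between the beta and gamma clusters, had 2027, 2051 and 2190 reads, with log2 folds of 0.43 (0.34 to 0.52) in the DAXX-/- library and 0.18 (0.09 to 0.27) in the ATRX-/- library. Ctnna1, which encodes alpha-catenin, the link from cadherins to actin, was at 0.45 (0.41 to 0.50) and 0.18 (0.14 to 0.22). The chaperone gene Hspa9 was at 0.32 (0.29 to 0.36) and -0.19 (-0.22 to -0.15). The chromosome's medians were 0.31 and 0.05, and the gamma sum lay above the neighbours' median in both comparisons with wildtype. Between the DAXX-/- and ATRX-/- libraries the neighbours' median was -0.36, beside -0.28 for the chromosome and -0.34 for the gamma sum.

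Of 14 cohesin and CTCF genes, which loop protocadherin promoters to enhancers, 13 were matched by symbol (Wapl was not) and all 13 were measured. Of these, 0 passed 2-fold in any comparison. Against wildtype 2.04% of all genes tested passed it in the DAXX-/- library and 1.84% in the ATRX-/- library, and 1.13% between the knockouts. The medians of the 13 against wildtype were 0.09 in the DAXX-/- library and 0.08 in the ATRX-/- library. Ctcf had 3241, 2683 and 3261 reads, with log2 folds of 0.14 (0.06 to 0.21) and 0.08 (0.01 to 0.15), and Rad21, the cleavable cohesin subunit, was at 0.08 (0.03 to 0.14) and 0.17 (0.12 to 0.23). Of 26 DNA methylation and heterochromatin factors, 1 fell past 2-fold in the DAXX-/- library and 0 in the ATRX-/- library. It was Dnmt3l, the cofactor of de novo DNA methylation, with 905, 195 and 411 reads, at -1.80 (-2.03 to -1.58) and, inside the rule, -1.07 (-1.24 to -0.90) in the ATRX-/- library. Tet1, an enzyme that oxidises methylated cytosine, was at -0.03 (-0.07 to 0.01) and -0.71 (-0.75 to -0.66). Dnmt3b, a de novo methyltransferase that methylates protocadherin promoters, was named after its values were seen and had 1347, 922 and 606 reads, at -0.14 (-0.26 to -0.01) and -1.08 (-1.23 to -0.94). Smchd1, a silencing factor of the clusters named in the same way, was at 0.24 (0.14 to 0.34) and 0.21 (0.12 to 0.31).

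Protocadherin proteins signal through catenins, kinases and actin regulators. Of 26 genes listed for such partners 25 were tested and 0 passed 2-fold in any comparison. Against wildtype 2.04% of all genes tested passed it in the DAXX-/- library and 1.84% in the ATRX-/- library, and 1.13% between the knockouts. The medians of the 25 against wildtype were 0.01 in the DAXX-/- library and 0.04 in the ATRX-/- library. Beta-catenin (Ctnnb1) was at 0.13 (0.09 to 0.17) and 0.20 (0.17 to 0.24), and Nckap1, of the WAVE complex that binds protocadherin tails, at 0.01 (-0.07 to 0.08) and -0.10 (-0.17 to -0.03). Of 20 classical cadherins, 6 were tested in the DAXX-/- library, 7 in the ATRX-/- library and 6 between the libraries, with 0 past 2-fold. Cdh1 was at 0.46 (0.40 to 0.51) and 0.27 (0.22 to 0.33) and Cdh3 at 0.77 (0.58 to 0.96) and 0.86 (0.68 to 1.04).

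Protocadherins are abundant in neurons and some are expressed by fibroblasts, so markers of other cells were read beside them. Of 18 neural markers, 10 were tested in the DAXX-/- library, with 0 past 2-fold (2.04% of all genes tested). In the ATRX-/- library 11 were tested, with 1 higher (0.695% of all genes tested). This was Neurod1, at 1.44 (1.06 to 1.82), and Dcx, Neurog2, Slc17a6 and Fabp7 had 0 reads in all 3 libraries. The summed neural level was 372 CPM in wildtype, 526 CPM in the DAXX-/- library and 539 CPM in the ATRX-/- library. Stmn2 made up 201, 375 and 375 CPM of this, so the rise of the sum lay in that gene. Other neural markers went both ways. Tubb3 was at -0.26 (-0.39 to -0.12) and -0.65 (-0.79 to -0.52), and Sox1 at 0.47 (0.23 to 0.71) and 1.04 (0.83 to 1.25). The median over the 10 measured neural markers was 0.29 and 0.04. Of 15 fibroblast markers, 4 of 10 tested fell past 2-fold in the DAXX-/- library and 1 of 11 in the ATRX-/- library. Lum had 0 reads in all 3 libraries. The median over the 8 measured fibroblast markers was -0.98 and -0.21, so the count past 2-fold leaves out smaller falls. The sum of the fibroblast markers was 1414, 1708 and 1728 CPM. Fn1 made up 1303, 1644 and 1641 CPM of this, so the rise of that sum lay in Fn1. Of 12 primitive endoderm markers, 11 of 11 tested fell past 2-fold in the DAXX-/- library and 3 of 11 in the ATRX-/- library. The median over the 10 measured endoderm markers was -2.69 and -0.73, so the count past 2-fold leaves out smaller falls in the ATRX-/- library. The sum of the endoderm markers was 626, 217 and 365 CPM. The part of these cell type differences in the gamma values was not tested. In bulk RNA, fewer cells of a type and less RNA per cell cannot be told apart.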

How the data were processed

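The deposited values are raw read counts per reference sequence, 1 table per library in the layout of SAMtools idxstats. The submitters' processing notes name GRCm38.p4, SAMtools and Bowtie 1.1.2. Alignment settings, strand and the treatment of reads with several positions are not given in the sources used here, so antisense transcripts cannot be separated. Sequence lengths are the other column used, in the authors' tables. Counts were summed over the transcripts of a symbol and scaled by TMM (edgeR 4.0.16, R 4.3.3) over all 24006 symbols. With 1 library per genotype there are 0 residual degrees of freedom and no p-value. A gene was called when its exact conditional binomial 95% interval lay wholly beyond 2-fold. Genes under 1 CPM in both libraries were not tested. Medians use genes with a mean of at least 1 CPM and a prior count of 1. Intervals cover counting error only and treat reads as independent molecules.

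Shared sequence was counted in windows of 50 bases on GENCODE M21 transcripts. A window was called gamma constant when at least 20 gamma transcripts hold it. On pairs of counted transcripts with identical sequence and at least 20 reads, a chi-square test of equal counts gave 1.05, 0.668 and 0.986 per degree of freedom, near the value of 1 that random placement of each read gives. The calling code was tested on simulated data. Members and lists were chosen with earlier results of these data known. Every member may be named, and from each list those past the rule and then the most abundant, up to 4, or 8 beside the locus. Genes named outside this were chosen after their values were seen: Dnmt3b, Smchd1, Fn1 for its level, and listed genes with 0 reads in all libraries. Scaling (total counts, DESeq2 size factors), filters, depth, transcript choice, prior count and chromosome centring were varied. The other deposited reads, on repeat sequences, were not used here.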

Additional observations from a re-analysis of the deposited data

How the results depend on the processing

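No paired analysis was possible because each genotype has 1 library and the labels carry no replicate numbers, and for the same reason no replicate could be left out. Of 123 values recomputed under an alternative, 115 stayed within counting error (or within 0.1 for a median). The count of members past 2-fold was 0 in all 3 comparisons under each alternative run. For the alpha and beta sums that error is wide, so staying within it says little. The alpha sum of the ATRX-/- library against wildtype counted as unchanged at -2.25 (-5.48 to -0.02) without the Gm42416 transcript, beside -1.29 (-2.80 to 0.03). That exclusion was not planned. Centring on the other chromosome 18 genes, the gamma sum went to 0.34 in the DAXX-/- library against wildtype and -0.06 between the knockouts, and the member medians to 0.38 and -0.13. Without a filter on low counts the medians were 0.43 in the DAXX-/- library and 0.15 in the ATRX-/- library. Reads above the shared-sequence level, an alternative chosen after seeing the data, numbered 728, 808 and 691 (counting SE 136, 151 and 160). They gave a log2 fold of 0.56 (-0.19 to 1.31) in the DAXX-/- library, -0.01 (-0.85 to 0.83) in the ATRX-/- library and -0.57 (-1.41 to 0.27) between the knockouts, so at this depth no direction can be read for the variable exons as a whole. Scaling by total counts moved the median of all measured genes from 0.03 to -0.07 in the DAXX-/- library and left the gamma sum at 0.56, with 13 intervals above 0 in place of 16.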
